A study of Mus musculus with 12 samples.

Results

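AMPA receptors are the glutamate-gated channels that carry fast excitatory transmission, and 8 of their genes are described here in neurons of the ventral hippocampus (vHPC) that project to nucleus accumbens (NAc). The genes were listed by name, with no cut on a measured value, out of the 37310 genes counted. They are the 4 GluA subunits that build the channel (Gria1, Gria2, Gria3 and Gria4) and 4 auxiliary proteins: the transmembrane AMPA receptor regulatory proteins (TARPs) Cacng2 (stargazin), Cacng3 and Cacng8, and the cornichon Cnih2. The question was how these transcripts stand in the projection neurons against the surrounding tissue, and whether they differ when FosB is deleted.

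All mice were C57BL/6 and carried Rosa26 eGFP-L10a, a Cre-dependent ribosomal protein fused to GFP. Retrograde HSV-hEf1α-Cre was placed in NAc of every mouse, controls included, and vHPC punches were taken 3 weeks later. FosB knockout (KO) mice were in addition FosB fl/fl, and the wildtype (WT) controls were littermates without the floxed allele. Ribosomes were pulled down with anti-GFP antibodies (TRAP), and each pool of mice gave 1 TRAP and 1 input library, for 3 pools per genotype. A pool was 3 mice by its label and 3 to 4 by the protocol, and no age is given for these mice. As limits of the model, the vector was not restricted to 1 cell type, neurons that reach NAc from other regions could lose FosB as well, and input was the whole punch, in which only transduced cells could recombine.

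Gene counts summed to 3416030 to 5614089 in each library, and each member had between 50 and 2475 counts in each library, so none was near the limit of 3 counts (0.534 to 0.878 CPM). Fosb, the deleted gene, was at 18.8 to 29.4 CPM in KO TRAP against 32.0 to 45.3 CPM in WT TRAP, lower in every KO library but not absent. The floxed allele removes only some exons, by the study's description, and counts cover the whole gene, so reads from retained exons are counted also where deletion was complete. This difference was itself not called (log2 fold change -0.76, SE 0.21, edgeR, adjusted p = 0.337), nor was that in input (-0.68, adjusted p = 1.00), so a comparison of KO with WT in which no gene of interest is called does not show that levels were equal. The label of hippocampal neurons was checked against markers. The 4 markers of CA1 and subiculum found in the files summed to 191 to 278 CPM in TRAP and 117 to 165 CPM in input, but were mixed gene by gene, with Fibcd1 called higher in TRAP (log2 fold change 1.64), Fn1 called lower (-3.35) and the other two not called over both genotypes. Dentate gyrus markers were lower in TRAP, at 12.6 to 21.8 CPM against 52.4 to 125 CPM for the sum of 5. The summed level of 7 glutamate neuron markers was 4677 to 5200 CPM in TRAP and 3911 to 4494 CPM in input. The 10 astrocyte markers summed to 79.4 to 104 CPM in TRAP against 637 to 747 CPM in input. The 10 GABA neuron markers summed to 881 to 1045 CPM in input, and to 182 to 431 CPM in 5 of the TRAP libraries but 653 CPM in KO TRAP 2, which stands apart. WT TRAP 1 had the highest level of Gria3, Gria4, Cacng2, Cacng3 and Cacng8 among the TRAP libraries.

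An AMPA receptor is a tetramer, and its subunit mixture sets conductance, calcium entry and trafficking. GluA2, the Gria2 product, keeps calcium out of the channel because its messenger RNA is edited at the Q/R site in the pore, where adenosine deamination turns a glutamine codon into an arginine codon. GluA1 is the main partner of GluA2 in hippocampal pyramidal cells and moves into synapses with potentiation, GluA3 joins GluA2 in a second pool of receptors, and GluA4 is prominent in many interneurons. TARPs anchor receptors to the postsynaptic scaffold and slow their closing, Cacng8 being the TARP best known from hippocampus, and Cnih2 promotes export from the endoplasmic reticulum and also slows the channel.

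The Q/R codon is shown because editing there sets the calcium permeability of receptors with GluA2, while the gene itself encodes the same residue as the other 3 genes. Each line below gives 60 coding bases of the longest coding transcript in Gencode vM1, on the strand of the gene, with the Q/R codon in capitals.
Gria1: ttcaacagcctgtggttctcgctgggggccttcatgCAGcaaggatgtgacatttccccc
Gria2: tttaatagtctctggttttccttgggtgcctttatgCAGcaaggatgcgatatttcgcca
Gria3: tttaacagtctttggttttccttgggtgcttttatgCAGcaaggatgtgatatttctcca
Gria4: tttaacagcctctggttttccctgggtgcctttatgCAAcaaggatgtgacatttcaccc
On mm9 these lie at chr11:57056560-57056619 (+ strand, exon 11 of Gria1), chr3:80510812-80510871 (- strand, exon 11 of Gria2), chrX:38963406-38963465 (+ strand, exon 11 of Gria3) and chr9:4464116-4464175 (- strand, exon 12 of Gria4). The genomic codon read glutamine in all 4 genes, at residue 600, 607, 612 and 608 in that order. Between any 2 of the 4 stretches, 5 to 13 of the 60 bases differed and none of the 20 encoded residues. Counts per gene do not tell edited from unedited Gria2, nor the flip and flop exons, so neither was measured here.

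Over the whole coding sequence, any 2 GluA genes were identical at 69.9% to 73.6% of aligned bases. Of the 75-base stretches cut every 5 bases from the exons of the 8 genes, none was found to match another place in mm9 with up to 2 mismatches. The aligner found 1729 of 1731 stretches of Gria3 and 1036 of 1044 of Cacng2 at their own place, and every stretch of the other genes. Gene by gene, Gria1 spans chr11:56824889-57143746 (+), Gria2 chr3:80488858-80606713 (-), Gria3 chrX:38754031-39031778 (+), Gria4 chr9:4417899-4796234 (-), Cacng2 chr15:77822178-77950458 (-), Cacng3 chr7:129815258-129912905 (+), Cacng8 chr7:3394567-3415366 (+) and Cnih2 chr19:5092871-5098418 (-). An opposite-strand gene overlaps 323 exon bases of Cacng2, and same-strand genes overlap 29 in Gria2, 91 in Gria3 and 16 in Gria4; the strand setting of the counting is not given in the sources used here.

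Levels were first ordered per kilobase of exon, the scale on which genes can be compared. On CPM per kb, the order was Cnih2, Gria1, Gria2, Cacng3, Cacng8, Gria3, Cacng2, Gria4 in each of the 4 groups. In WT TRAP, Cnih2 stood at 152 ± 21.7 CPM per kb (SD, n = 3) and Gria4 at 4.13 ± 1.31 CPM per kb. Gria1 and Gria2 were close, at 62.4 ± 8.17 and 55.9 ± 6.02 CPM per kb in WT TRAP and at 70.5 ± 5.31 and 65.2 ± 3.25 CPM per kb in KO TRAP, and their libraries overlapped in both. In input the same genes did not overlap, with Gria1 at 79.0 ± 7.90 and Gria2 at 56.0 ± 6.02 CPM per kb in WT. Cacng3 and Cacng8 overlapped in WT TRAP and KO input, and all other neighbours in the order were apart in all 3 libraries of each group. The overlap of Gria1 and Gria2 and the middle of this order depend on gene models. Per kb of the longest transcript, Gria1 and Gria2 averaged 76.8 and 65.25 CPM per kb in KO TRAP, further apart than per kb of exon. The annotated Cacng8 model holds only 663 bases of exon, the fewest of the 8, and reads outside them were not counted for it. Gria3 per kb of its longest transcript was at 24.8 CPM per kb in WT TRAP, level with Cacng8 at 24.7 CPM per kb.

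**Figure D1:**
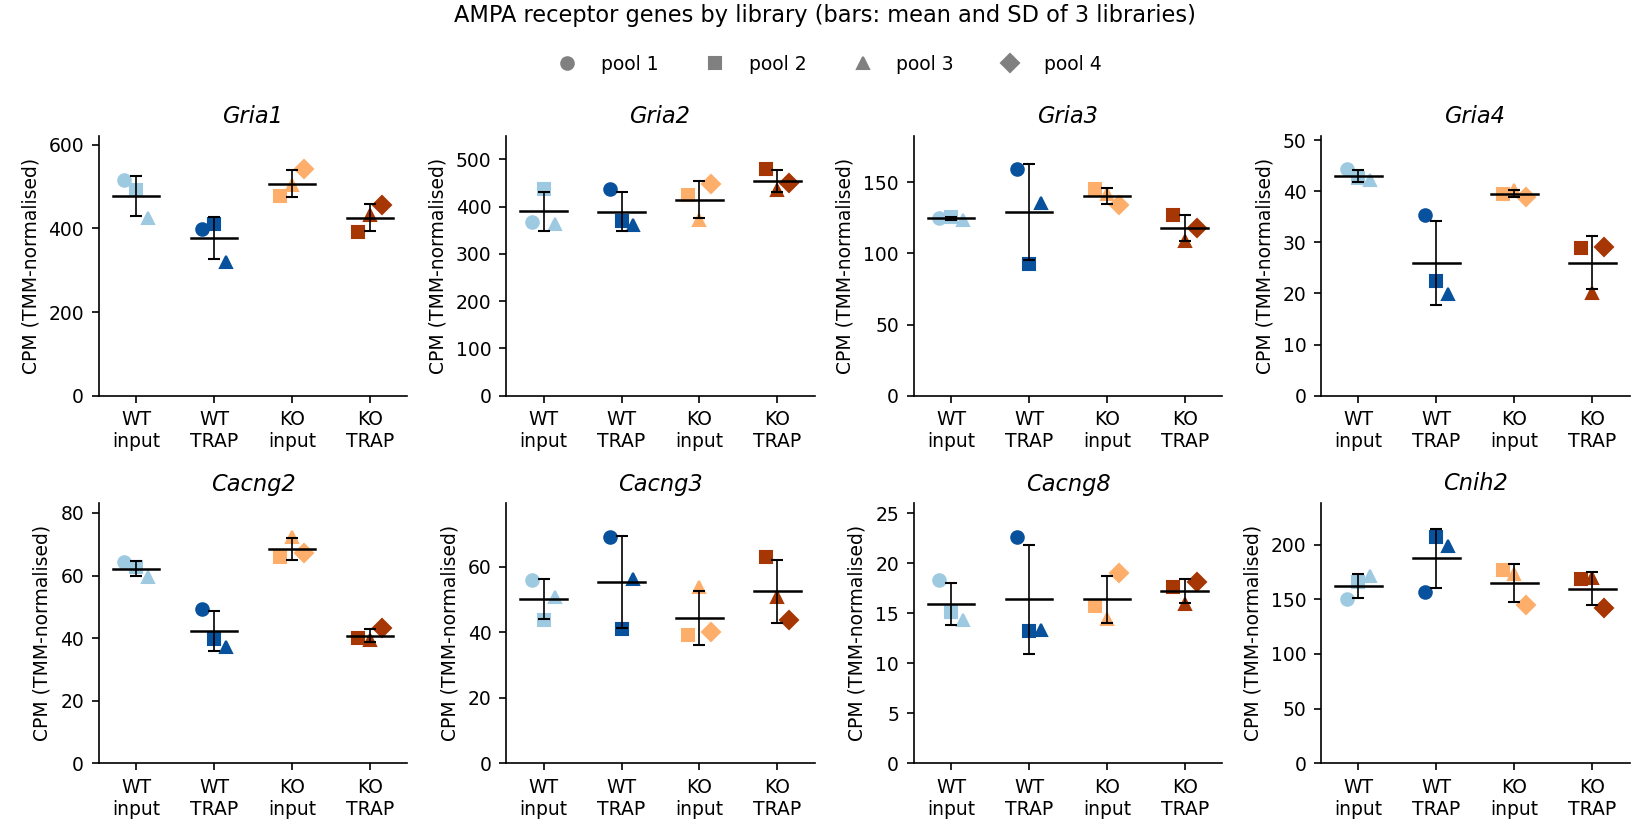
TMM-normalised CPM (y axis, from 0) of each of the 8 genes in the 12 libraries; x axis, group; marker shape, pool number; black bars, mean and SD of 3 libraries. Gria4 and Cacng2 lie lower in every TRAP library than in any input library, and the groups of the other 6 genes overlap when all 12 libraries are considered.

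TRAP was then compared with the input of the same pools to ask how the tagged neurons differ from the whole punch. Gria1, Gria4 and Cacng2 were lower in TRAP, at 81.5%, 63.2% and 63.7% of input over both genotypes, whereas the fitted levels of Gria2, Gria3, Cacng3, Cacng8 and Cnih2 were 93.3% to 114.5% of input and did not pass the test. The 3 lower members are read against a background in which 22.7% of all 13214 genes tested were called lower and 20.1% higher. No member was called higher. The median log2 fold change of the 8 members was -0.02, as against -0.01 over all genes tested. TRAP holds RNA bound to tagged ribosomes, whereas input holds RNA of the whole punch. Mitochondrial genes made up 0.030% to 0.13% of counts in TRAP and 5.29% to 9.05% in input. Because both are bulk samples, fewer cells that use a gene, less RNA per cell and less of that RNA on ribosomes cannot be told apart in these values.

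Among the subunits, Gria1 was at 399, 411 and 320 CPM in the TRAP libraries of WT pools 1, 2 and 3 against 516, 493 and 424 CPM in their inputs. KO pools 2, 3 and 4 gave 392, 431 and 455 CPM in TRAP against 477, 503 and 541 CPM in input. Gria1 was thus lower in TRAP in 6 of 6 pools, although the highest TRAP libraries overlap the lowest inputs. On the log2 scale its change in TRAP was -0.30 (SE 0.07, edgeR quasi-likelihood test, adjusted p = 0.00131).

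Gria4 showed a wider gap. In WT TRAP it was at 35.3, 22.4 and 20.0 CPM against 44.3, 42.5 and 42.2 CPM in input, and in KO TRAP at 28.8, 20.0 and 29.1 CPM against 39.4, 40.3 and 38.9 CPM. All 6 TRAP libraries were below all 6 inputs, the log2 fold change was -0.66 (SE 0.14), and edgeR gave an adjusted p of 0.000309. GluA4 transcripts are typical of interneurons, and beside this result the GABA neuron list fell in TRAP, with 9 of its 10 genes called lower and a median log2 fold change of -1.72; the part of GABA neurons in the Gria4 value, and in those of Cacng2 and Gria1, was not tested. The glial marker lists fell further in TRAP, with 10 of 10 astrocyte genes (median -3.004), 9 of 9 oligodendrocyte genes (-3.65), 5 of 6 oligodendrocyte precursor genes (-3.54) and 9 of 9 microglia genes (-3.47) called lower. The remaining 1 oligodendrocyte precursor gene was called higher. The part of glia in the 3 values was not tested either. WT TRAP 1 and KO TRAP 2, the libraries with the highest GABA neuron sums among TRAP, were 2 of the 3 highest for Gria4, and KO TRAP 4, with the lowest GABA neuron sum, was the other. Without KO pool 2, over both genotypes, Gria4 was at -0.69 and Cacng2 at -0.62 on the log2 scale.

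Gria2 did not differ detectably between fractions. Its CPM were 437, 369 and 361 in WT TRAP, 478, 434 and 449 in KO TRAP, 368, 438 and 362 in WT input and 424, 371 and 447 in KO input. The ranges overlap throughout, and the 95% interval of the TRAP level over both genotypes ran from 94.6% to 116% of input. Gria3 ranged most widely in WT TRAP, from 92.4 to 159 CPM, and stood between 109 and 127 CPM in KO TRAP, 123 and 126 CPM in WT input and 134 and 145 CPM in KO input. In KO alone, the Gria3 log2 fold change between fractions was -0.26 (SE 0.11) and did not pass the threshold in edgeR (adjusted p = 0.0774).

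Of the 4 auxiliary genes among the members, Cacng2 alone was called. Pools 1, 2 and 3 of WT gave 49.4, 39.8 and 37.3 CPM in TRAP and 64.3, 62.7 and 59.7 CPM in input. The KO pools gave 40.0, 39.3 and 43.1 CPM in TRAP and 66.0, 72.3 and 67.1 CPM in input. No TRAP library reached the lowest input, which was so for 2 of the 8 members, Cacng2 and Gria4, and for 12.6% of all genes tested. The log2 fold change was -0.65 (SE 0.10, edgeR, adjusted p = 8.17e-06), and Cacng2 was lower in TRAP in 6 of 6 pools, by 0.38 to 0.88 on the log2 scale.

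Cacng3 and Cacng8, the other 2 TARPs among the members, were not called. Cacng3 gave 69.2, 41.0 and 56.2 CPM for TRAP from WT and 62.9, 50.8 and 43.8 CPM from KO, against 43.9 to 55.9 CPM and 39.2 to 53.9 CPM in the inputs. It was higher in TRAP in 4 of 6 pools, with a log2 fold change of 0.20 (SE 0.13) that did not pass. Cacng8 gave 22.6, 13.2 and 13.3 CPM for TRAP from WT, 15.9 to 18.1 CPM in KO TRAP, 14.4 to 18.3 CPM in WT input and 14.5 to 19.0 CPM in KO input, and was higher in TRAP in 3 of 6 pools. Its interval was the widest of the 8, from 81.2% to 135% of input. Cnih2 gave 157, 207 and 199 CPM for TRAP from WT and 168, 169 and 142 CPM from KO, against 150 to 171 CPM in WT input and 144 to 176 CPM in KO input, a log2 fold change of 0.08 (SE 0.09) over both genotypes.

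**Figure D2:**
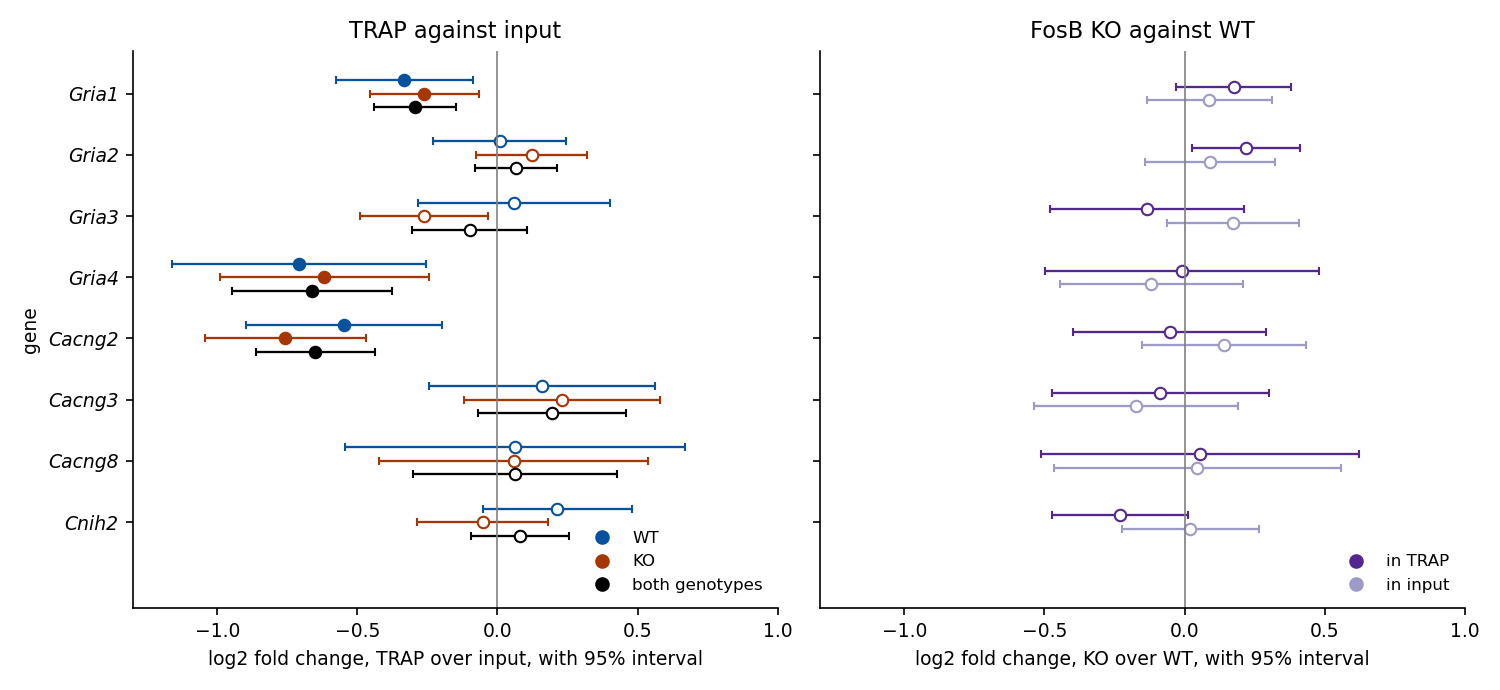
Log2 fold change (x axis) of the 8 genes (y axis) with 95% intervals from edgeR, for TRAP over input (left) and KO over WT (right); filled points passed an adjusted p of 0.05. The 9 filled points are those of Gria1, Gria4 and Cacng2 on the left, and no point on the right is filled.

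Gria1, Gria4 and Cacng2 were also the members called lower when each genotype was taken alone, 3 of 8 in WT, where 13.1% of 12426 genes were called lower, and 3 of 8 in KO, where 15.9% of 12463 were. In WT the TRAP levels were 79.4%, 61.2% and 68.4% of input for Gria1, Gria4 and Cacng2, with adjusted p of 0.0441, 0.0224 and 0.0217 in edgeR. In KO they were 83.5%, 65.2% and 59.2% of input, with adjusted p of 0.0403, 0.0123 and 0.000264. These calls in single genotypes rest on few libraries. In WT, Gria1 lost its call without any 1 pool, pool 1 included (log2 fold change -0.31, adjusted p = 0.095, edgeR), and Gria4 and Cacng2 lost theirs without pool 2 or pool 3. The log2 fold changes in WT without pool 2 and without pool 3 were -0.39 and -0.31 for Gria1, -0.63 and -0.58 for Gria4 and -0.51 and -0.50 for Cacng2. In KO, Gria1 kept its call in 4 of 9 alternatives, losing it without pool 2 (-0.25) or pool 4 (-0.26), with total counts, without the filter and in a fit of all 4 groups. Also in KO, Gria4 lost its call without pool 3 (-0.45) or pool 4 (-0.72), whereas Cacng2 was called without any 1 pool, at -0.81 to -0.70. Over both genotypes, all 3 were called in each of the 12 alternatives, leaving out any 1 pool included.

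The subunit mixture was described as the share of each gene in the summed GluA counts per kb of exon. The Gria2 share was 41.7%, 39.6% and 42.6% in WT TRAP and 45.5%, 42.2% and 41.3% in KO TRAP. In input it was 33.5%, 38.4% and 36.8% in WT and 37.9%, 33.9% and 37.0% in KO. Every TRAP library lay above every input library, and the share was higher in TRAP in 6 of 6 pools, by 5.89 ± 2.79 percentage points (SD over 6 pools). The Gria1 share was lower in TRAP in 5 of 6 pools, with WT pool 2 the exception and a mean difference of -4.91 ± 3.70 points. The Gria4 share was lower in TRAP in all 6, with 4.45% ± 0.31 (SD, n = 3) in WT input and 3.00% ± 0.63 in WT TRAP. Shares are tied to each other, and Gria2 itself was not called while Gria1 and Gria4 were. The shares of Gria2 in KO TRAP and WT TRAP, 43.0% ± 2.25 and 41.3% ± 1.56, overlapped.

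Among the 4 auxiliary genes, Cnih2 made up 58.9% to 75.6% of the summed counts per kb in every library. Cacng2 made up 3.01% to 4.38% of it in TRAP and 5.30% to 6.62% in input. The log2 ratio of the summed auxiliary level to the summed GluA level was higher in TRAP in 6 of 6 pools, by 0.21 ± 0.16 (SD). With no division by length it was higher in 5 of 6, by 0.10 ± 0.17, and KO pool 3 turned to -0.10. Per kb of exon it ran from 0.52 to 0.88 in WT TRAP, 0.19 to 0.48 in KO TRAP, 0.26 to 0.53 in WT input and 0.08 to 0.42 in KO input. The 3 WT TRAP libraries were thus above the 3 KO TRAP libraries in this ratio, by a narrow margin, and this difference was not tested. Among single genes, 11.9% of those tested had KO and WT TRAP libraries that did not overlap. Gria1 and Gria2 were on average higher and Cnih2 on average lower in KO TRAP, and none of them was called.

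**Figure D3:**
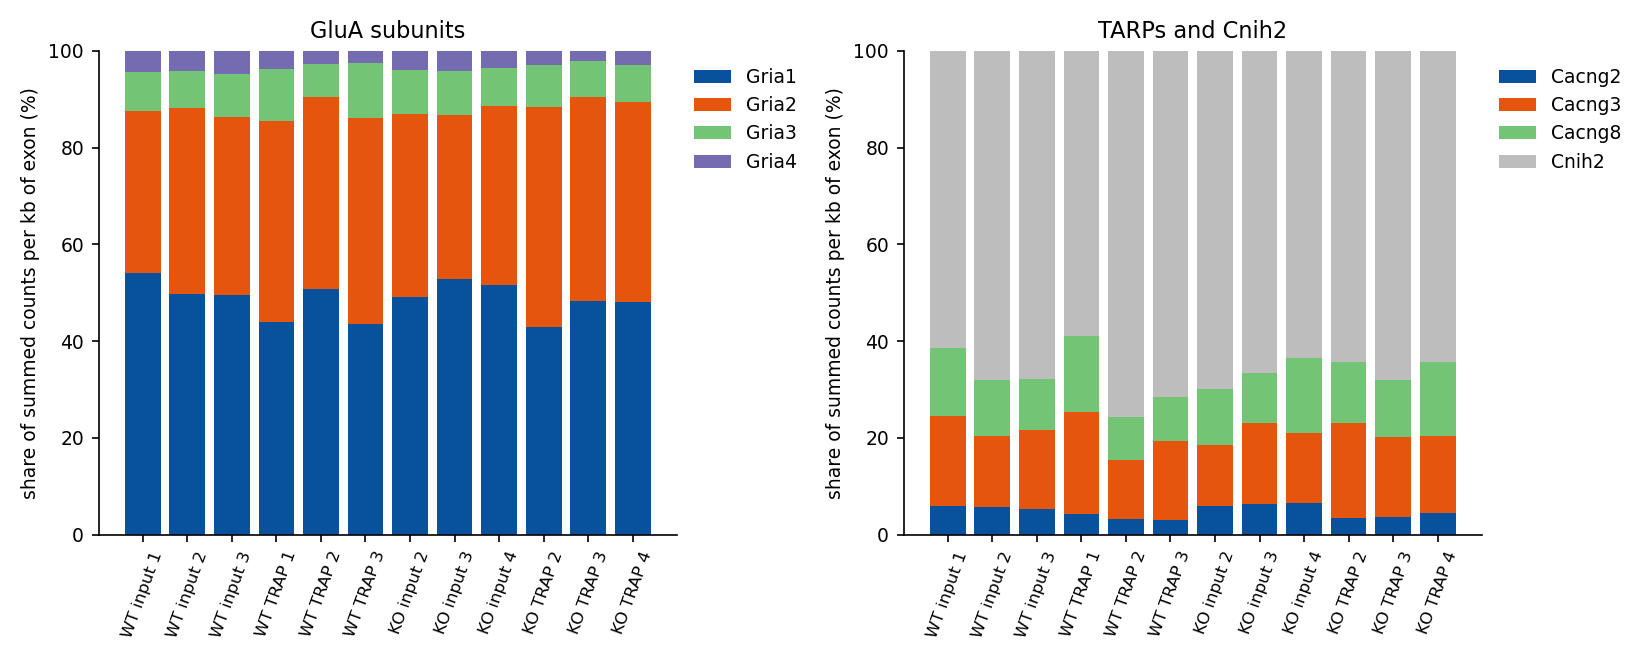
Share of each gene in the summed counts per kb of exon (y axis, percent) in each of the 12 libraries (x axis), for the GluA subunits (left) and the 4 auxiliary genes (right). Gria2 takes 39.6% to 45.5% of the GluA sum in TRAP and 33.5% to 38.4% in input, and Cnih2 dominates the auxiliary sum in every library.

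The rest of the AMPA receptor machinery gives the setting of these genes, from lists of 12 other auxiliary subunits, of which 11 were found in the files, 6 assembly proteins, 16 binding and trafficking proteins and 3 editing enzymes. Of the 11, all tested over both genotypes, 4 were called lower in TRAP and 1 higher, with a median log2 fold change of -0.13, where 22.7% of all genes tested were lower and 20.1% higher. Cacng7 (log2 fold change -1.57, SE 0.14) and Cacng4 (-1.17, SE 0.20), further TARPs, had lower values than any member, and Gsg1l (-0.79, SE 0.27), which modulates receptor gating, and Shisa7 (-0.50, SE 0.11) were the others called lower. Prrt1 (SynDIG4), which is found with AMPA receptors outside the synapse, was the one called higher, at 0.87 (SE 0.08). Prrt1 stood at 400.5 to 515 CPM in WT TRAP against 222 to 248 CPM in WT input, without overlap.

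Receptor assembly in the endoplasmic reticulum was represented by 6 genes, of which 1 was called, Frrs1l, lower in TRAP at -0.65 (SE 0.07); its product binds GluA subunits early in their assembly. Of the 16 binding and trafficking genes, 8 were called higher and 3 lower, with a median of 0.16, beside the same 20.1% higher and 22.7% lower over all genes. Nptxr (1.31, SE 0.19) and Nptx2 (0.87, SE 0.22), neuronal pentraxins that cluster receptors at synapses, Arc (0.92, SE 0.09), an immediate early gene whose product drives receptor endocytosis, and Nsf (0.74, SE 0.07), an ATPase that binds GluA2, were the 4 with the largest differences, all higher in TRAP. Of the editing enzymes, Adarb1, which edits the Q/R site, was not called (-0.05), Adar was higher (0.68, SE 0.07) and Adarb2 lower (-3.01, SE 0.23) in TRAP. Adarb2, a marker of some interneurons, was at 1.22 to 6.71 CPM in KO TRAP and 33.2 to 44.4 CPM in KO input.

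**Figure D4:**
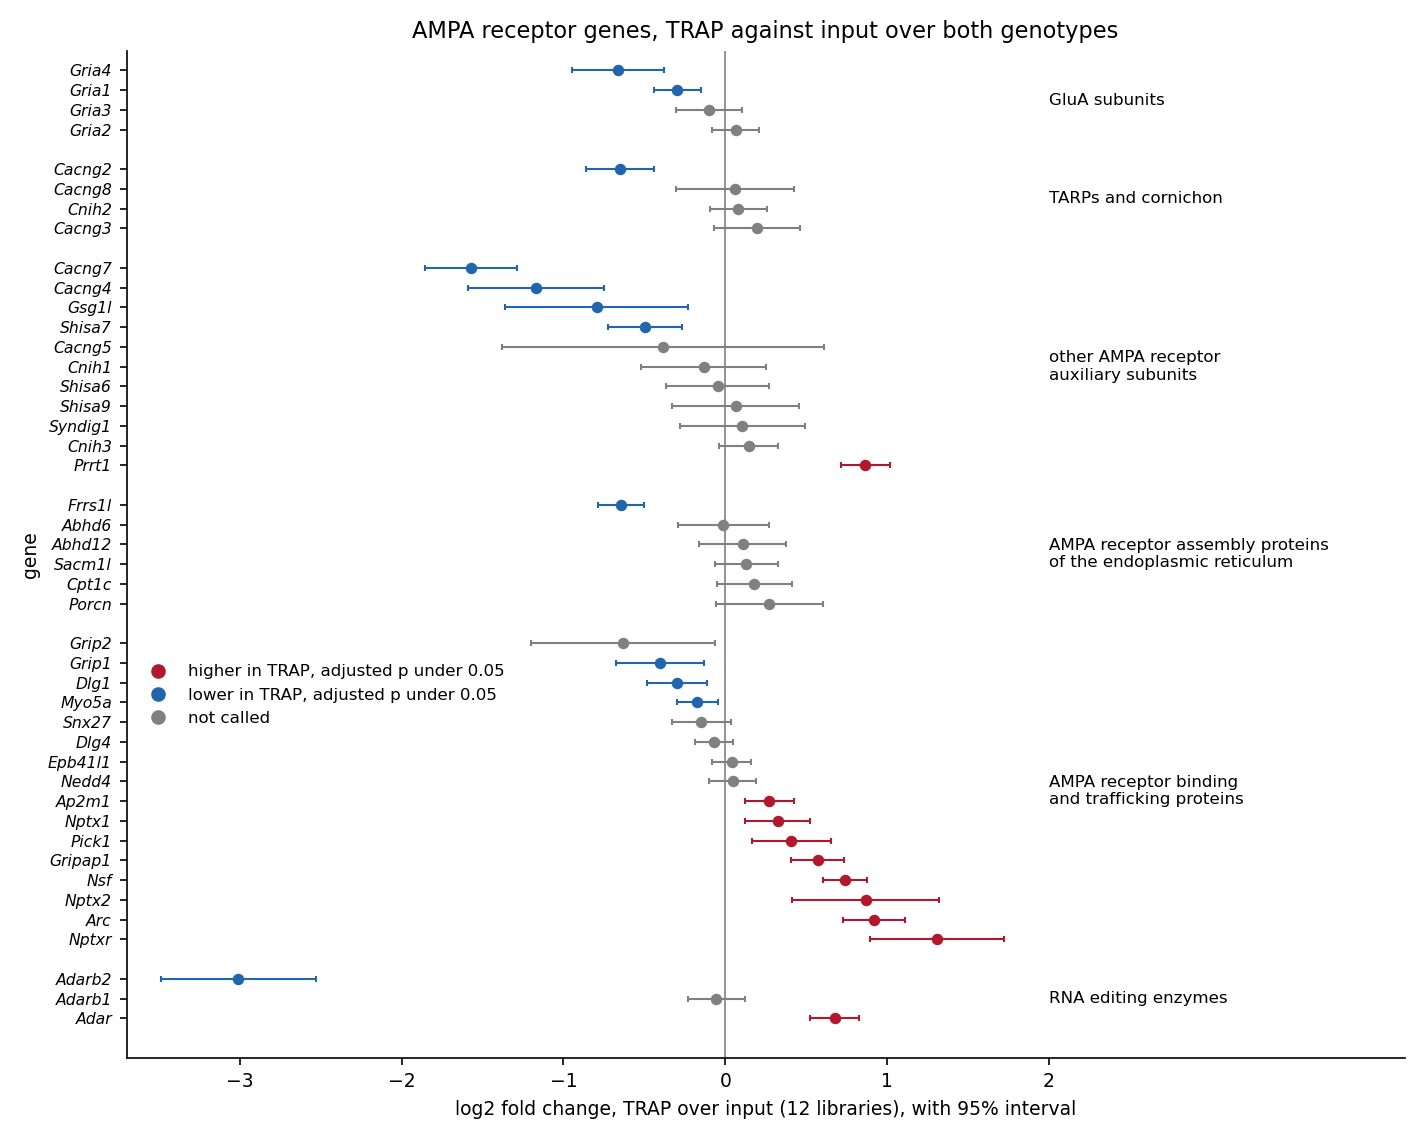
Log2 fold change, TRAP over input across 12 libraries (x axis), with 95% intervals, for the 8 members and the genes of the 4 other AMPA receptor lists (y axis); red, called higher; blue, called lower; grey, not called. The 3 called members and Frrs1l are lower in TRAP, and the other 3 lists hold called genes on both sides of 0.

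KO was compared with WT to ask whether loss of FosB, a subunit of the AP-1 transcription factor, goes with other levels of AMPA receptor transcripts. In TRAP no member was called in edgeR, against 0.0682% of 11727 genes, and the fold changes were small. At an unadjusted p under 0.05 there was 1 member, Gria2, where 6.05% of all genes met that mark, and DESeq2 called none of the 8 either. The libraries of KO and WT TRAP overlapped for all 8 members, as against 11.9% of genes for which they did not. The median log2 fold change of the members was -0.03 in TRAP. The 95% interval was widest for Cacng8, the member with the fewest counts, from 70.2% to 154% of the WT level, and narrower for Gria1 and Gria2.

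Gria2 was 117% of WT in KO TRAP, with an interval of 102% to 133% (log2 fold change 0.22, SE 0.09, edgeR, adjusted p = 0.784). Its 3 KO libraries were between 434 and 478 CPM and the WT ones between 361 and 437 CPM, so that WT TRAP 1 reached above the lowest KO library. Gria1 was 113% of WT, with an interval of 98.0% to 130%, and its log2 fold change of 0.18 became 0.07 without WT pool 3 and at most 0.25, without WT pool 2. Cnih2 was the member with the lowest value in KO, at 85.3% of WT and an interval of 72.1% to 101%. Leaving out 1 pool moved Gria2 between 0.17 (without WT pool 3) and 0.32 (without WT pool 1, edgeR, adjusted p = 0.274) on the log2 scale. For Cnih2, at -0.23 with all pools, it gave -0.34 without WT pool 1 (edgeR, adjusted p = 0.354), -0.15 without WT pool 2 and -0.15 without KO pool 4. Without KO pool 2, whose TRAP library had the high GABA neuron sum, Gria2 was at 0.18 and Cnih2 at -0.27.

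For the other 5 members the direction itself was not settled in TRAP. Gria3, Gria4, Cacng2, Cacng3 and Cacng8 had log2 fold changes of -0.13, -0.01, -0.05, -0.09 and 0.06, each smaller than its SE. Without WT pool 1 the same values were 0.05, 0.29, 0.08, 0.12 and 0.38, so that 4 of the 5 changed sign when that pool was left out; Cacng8 changed sign without WT pool 2 or 3.

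In input, no member was called either, where 0.0312% of 12816 genes were, and none met an unadjusted p under 0.05, which 2.89% of all genes did. The 3 KO inputs did not overlap the 3 WT inputs for 3 of 8 members, against 8.38% of all genes. Gria3 was higher in KO, at 134 to 145 CPM against 123 to 126 CPM, and so was Cacng2, at 66.0 to 72.3 CPM against 59.7 to 64.3 CPM. Gria4 was lower, at 38.9 to 40.3 CPM against 42.2 to 44.3 CPM. The log2 fold changes were 0.17 (SE 0.11), 0.14 (SE 0.14) and -0.12 (SE 0.16), with an adjusted p of 1.00 in edgeR for each, and in TRAP the same genes gave -0.13, -0.05 and -0.01. Marker levels differed between the same inputs without any being called. Dentate gyrus markers were higher in KO input for 4 of 5 genes (median log2 fold change 0.68, 2 with an unadjusted p under 0.05), and glutamate neuron markers were lower for 6 of 7 (median -0.12, 2 under 0.05). In TRAP, glutamate neuron markers were lower in KO for 6 of 7 genes (median -0.30, none under 0.05). The marker list with the largest median there was oligodendrocyte precursor, lower in KO for 3 of 4 genes tested (median -0.66, 1 under 0.05). The part of these markers in the values of the members was not tested.

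The difference of the KO effect between TRAP and input was tested as an interaction over all 12 libraries. None of the 8 members was called and none had an unadjusted p under 0.05, in a comparison that called 0.00757% of 13214 genes. The interaction was largest for Gria3, at -0.30 (SE 0.20), and Cnih2, at -0.25 (SE 0.17). In the other AMPA receptor lists none was called, and the genes with the smallest p were Cacng7, Abhd12, Ap2m1 and Adarb1.

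None of the other AMPA receptor lists held a called gene between KO and WT in either fraction. In TRAP the smallest unadjusted p of each list belonged to Syndig1, Cpt1c, Nptx2 and Adar. Nptx2, an activity-induced pentraxin, was at 18.8 to 31.6 CPM in KO TRAP and 30.4 to 42.8 CPM in WT TRAP (log2 fold change -0.62, SE 0.23, adjusted p = 0.728 in edgeR). In input the genes with the smallest p were Gsg1l, Abhd12, Gripap1 and Adarb1.

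FosB proteins bind AP-1 sites, so the promoters were scanned for the letters of that site. RefSeq promoters (GRCm38.p6, 250 bases before to 50 after the start) were at hand for Gria2, Gria4, Cacng2, Cacng3, Cacng8 and Cnih2. Neither TGANTCA, a loose form of the AP-1 site, nor TGACGTCA, the cyclic AMP response element, was found on either strand in these 6 windows, while 7.81% and 1.79% of all 32851 promoters held them. At such rates none in 6 windows is the likeliest outcome, so the scan says little. Sites outside these windows, and the promoters of Gria1 and Gria3, were not scanned.

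Finally, the genes most like each member across the 12 libraries were named by the smallest root mean square difference of log2(CPM + 0.5), each gene centred on its own mean, out of 13213 other genes. For Gria1 these were Stag2 (0.0775) and Dcaf12 (0.0779), where the median over all genes was 0.42 and the distance to a gene with no variation, the spread of Gria1 itself, was 0.202. Gria2 was nearest to Cds2 (0.0779) and Sik3 (0.0798), Gria3 to Alcam (0.122) and B4galt6 (0.127), and Gria4 to Mical3 (0.124) and Aktip (0.141). Cacng2 ran closest to Crebbp (0.0835) and Zfp652 (0.0877), Cacng3 to Cad (0.136) and Zfp46 (0.14), Cacng8 to Cacna1e (0.102) and Plxna2 (0.114), and Cnih2 to Rpl23 (0.0795) and Tspyl4 (0.104). For Gria2 and Cnih2, which varied least, that spread was 0.142 and 0.158, so that a low difference there says less than for Gria4 (0.408) or Cacng2 (0.344). No member was among the 2 nearest genes of another.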

How the data were processed

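Members and lists are given by gene name, but were chosen with earlier results of these data known. For every library the authors deposited whole-number read counts by gene, from SMARTer stranded total RNA libraries mapped to mm9 with TopHat and counted with HTSeq-count on Gencode vM1, leaving out reads with several places in the genome. Reads placed outside genes (20.6% to 27.1% of those with 1 place) or in several genes (2.11% to 2.56%) stayed out of library sizes. A title without the word input was read as TRAP.

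Tests used edgeR 4.0.16 (R 4.3.3): filterByExpr by group, TMM, robust quasi-likelihood F test, and Benjamini-Hochberg adjustment over all genes tested, called under 0.05. Only the groups compared entered each fit, all 12 libraries for TRAP against input over both genotypes and for the interaction. All 8 members passed the filter in every comparison. SE is the log2 fold change over the square root of F, and intervals are 95% and cover the spread between these pools only. CPM was scaled by TMM over 12 libraries. For shares and ratios, counts were divided by the exon union of each gene, and no p is given for them. The steps were tested on simulated data. Sequences were compared with Biopython 1.88 and aligned with minimap2 2.31. Within groups, the 12 pairs of libraries held the same count for 1.25% to 2.59% of the genes compared, so none was a copy of another.

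Each TRAP library and the input of its number came from the same mice. The deviations of the 2 libraries of a pool from their group means correlated across genes at 0.058 to 0.106, and the pool as a replicate block was an alternative. WT and KO pools that share a number were other mice, and correlated at -0.070 to 0.003. Other alternatives were RLE factors, total counts, no filter beyond 1 count, DESeq2 1.42.0, a fit of 4 groups, leaving out each pool, and, for shares, no length division or the longest transcript.

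Named were all 8 members, from each other list and comparison up to 4 called genes with the largest change or, with none called, the gene with the smallest p, and the 2 genes most like each member. The markers Fibcd1 and Fn1 fall outside this rule and were named after their values were seen.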

Additional observations from a re-analysis of the deposited data

Results flagged for a closer look

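Cnih2, the cornichon, was higher in TRAP than in input in 3 of 3 WT pools, by 0.06, 0.32 and 0.22 on the log2 scale, and lower in 3 of 3 KO pools, at -0.07, -0.03 and -0.03, so that all pools of a genotype moved in one direction, though by little in KO, and the genotypes in opposite directions. The test of that difference, the interaction in edgeR over 12 libraries, gave -0.25 (SE 0.17, interval -0.60 to 0.10, unadjusted p = 0.156, adjusted p = 1.00) and did not pass. Leaving out each pool gave -0.35 to -0.18. With total counts, the fitted value of Cnih2 in KO TRAP against input turned to 0.0037. Cnih2 was flagged for these values, and how many of all genes split in this way was not counted. Groups held 3 libraries each, too few for a test of single outlying libraries.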

How the results depend on the processing

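Of 520 member values under alternatives, 37 turned in direction, all of values that passed no test, 14 lost their call, all for Gria1, Gria4 or Cacng2 within 1 genotype, and none was newly called; the causes were not tested. The 3 members called over both genotypes kept their call in all alternatives, and the replicate block by pool changed no member's call. Gria1 in KO lost its call under total counts (adjusted p = 0.104, edgeR), no filter (0.0571) and the fit of 4 groups (0.0799). Its log2 fold change stayed between -0.28 and -0.21 over the 9 alternatives.

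Genes called between KO and WT in TRAP numbered 41 without the filter, 18 in DESeq2 and 5 (without KO pool 3) to 20 (without WT pool 1) when 1 pool was left out. In input they numbered 19, 8 and 1 to 5 in that order, 7 in the fit of 4 groups and 20 with the replicate block. Leaving out 1 pool gave 1289 to 3243 genes and 0 to 2 members called in WT TRAP against input, 1982 to 3181 genes and 1 to 2 members in KO, and 0 to 1 gene for the interaction.

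Under the replicate block, which in KO against WT joins different mice, the log2 fold change in TRAP became 0.070 for Gria3, 0.19 for Gria4, 0.041 for Cacng2 and 0.23 for Cacng3, and in input -0.0038 for Gria2. With total counts, Gria4 in KO against WT TRAP became 0.023 and Cnih2 in KO TRAP against input 0.0037. Gria2 in WT TRAP against input became -0.0055 with RLE, -0.0054 in DESeq2 and -0.00093 in the fit of 4 groups, and the Cacng8 interaction became -0.00012 with RLE, -0.0085 without the filter and -0.0023 in DESeq2.

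Leaving out 1 pool, KO against WT in TRAP ran from -0.32 to 0.054 for Gria3, -0.16 to 0.29 for Gria4, -0.13 to 0.084 for Cacng2, -0.26 to 0.12 for Cacng3 and -0.074 to 0.38 for Cacng8, and in input from -0.079 to 0.16 for Cacng8 and -0.026 to 0.11 for Cnih2. TRAP against input ran in WT from -0.12 to 0.12 for Gria2, -0.12 to 0.24 for Gria3 and -0.14 to 0.15 for Cacng8, in KO from -0.0046 to 0.41 for Cacng3 and over both from -0.0072 to 0.12 for Cacng8. The interaction ran from -0.028 to 0.35 for Gria4, -0.15 to 0.27 for Cacng3 and -0.089 to 0.19 for Cacng8. With 50 to 127 counts per library, Cacng8 had the widest intervals of the members.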
